A study of Mus musculus with 14 samples.

Results

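The genes examined here belong to the mitochondrial gene control network, in hearts of mice with respiratory complex I deficiency, and are Ppargc1a, Ppargc1b, Perm1, Esrra, Esrrb, Esrrg, Ppara, Ppard, Nrf1 and Gabpa. They were chosen by name, as coactivators and transcription factors of mitochondrial biogenesis and oxidative metabolism. No rule on their values was used, but earlier results of these data were known when they were chosen. All 10 of the 10 are listed in both count tables, among 42396 genes, and all 10 passed the filter on low counts (above 1 CPM, the count relative to the library total, in at least 1 library) in both experiments.

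The transcriptome had been measured by bulk RNA-seq of whole hearts from female mice, with 14 libraries in 2 experiments. The knockout experiment compared Atf3+/+FS6KD with Atf3-/-FS6KD mice at 12 weeks, with 4 hearts of each. The AAV experiment compared 3 hearts of the label MyoAAV2-shCtrl with 3 of the label MyoAAV2-shAtf3, after delivery at the neonatal stage of a muscle-directed adeno-associated virus that carried a control hairpin or one against Atf3. Atf3 encodes a stress-induced transcription factor of the ATF/CREB family, and the comparisons ask how its loss or knockdown altered these hearts. By the series' design text both experiments used FS6KD mice, so the controls carried the same defect, which the methods of the study describe: homozygous gene-trap alleles of Ndufs6 (Ndufs6gt/gt), a complex I subunit, on a mixed C57BL/6J and 129/Ola background, with a knockdown that is strongest in the heart. No heart with intact Ndufs6 entered these comparisons. Atf3-/- mice carried a deletion made with CRISPR-Cas9 in the whole animal, and the labels of the AAV libraries name neither the Ndufs6 allele nor an age.

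Columns of the AAV table carry group names that contradict the labels, and the labels were followed, so each direction there depends on them. The difference between the experiments was also computed with the AAV groups turned, as the column names read, an alternative chosen after the data were seen, and values from it are given beside the directions it turns. In the AAV comparison itself turning the groups changes each sign and nothing else. Atf3 itself did not settle which naming holds. Its level was not lower in the libraries labelled Atf3-/- or shAtf3, and the groups overlapped in both experiments. By the labels its log2 fold change in the AAV experiment was 0.41 (SE 0.19, edgeR adjusted p = 0.420). With the AAV groups turned, Atf3 was lower in the treated group by as much, again without a call. Atf3 was at 6.36 to 25.8 CPM in Atf3+/+FS6KD, 14.3 to 37.6 CPM in Atf3-/-FS6KD, 10.1 to 14.1 CPM in the libraries labelled shCtrl and 12.1 to 21.2 CPM in those labelled shAtf3. In Atf3-/- mice the deletion leaves exonic sequence that can still be counted. Ndufs6 was at 2.40 to 3.72 CPM before TMM scaling in the 14 libraries. Total counts were 33914931 to 134920825 in the knockout experiment, where replicates 3 and 4 of both genotypes were the deeper ones, and 30085432 to 40534913 in the AAV experiment. Summed cardiomyocyte markers reached 49634 to 72217 CPM, whereas 6 of 8 lymphocyte, 6 of 8 adipocyte and 6 of 8 skeletal muscle markers and 2 of 6 atrial markers stayed below 1 CPM in all libraries, with no marker at 0 throughout.

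PGC-1α and PGC-1β, encoded by Ppargc1a and Ppargc1b, are coactivators. They do not bind DNA themselves but are recruited by transcription factors and raise the expression of genes for respiration, the citric acid cycle and fatty acid oxidation. The estrogen-related receptors (Esrra, Esrrb, Esrrg) and the peroxisome proliferator-activated receptors (Ppara, Ppard) are nuclear receptors that bring them to metabolic genes, and NRF1 and GABPA (also called NRF2α) act on genes of the respiratory chain and of mitochondrial DNA maintenance. In cardiac muscle, where fatty acids are the main fuel, the PGC-1 and ERR factors are needed for a normal capacity of oxidative phosphorylation. Perm1 is a muscle-enriched regulator that is induced by PGC-1 and ERRs and acts with them.

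The start regions of Ppargc1a, Perm1 and Ppara are shown because these 3 genes had the smallest p-values of the 10 in the AAV experiment. Each is the 250 bases before the annotated start site in RefSeq on GRCm38.p6, read 5′ to 3′ on the gene's strand, and all 3 lie within the annotated span of their genes, which begins farther upstream. Capitals mark the ATF/CRE half-site in Ppargc1a, the ERR element in Perm1 and the NRF1 motif in Ppara.
Ppargc1a, chr5:51567726-51567975, minus strand: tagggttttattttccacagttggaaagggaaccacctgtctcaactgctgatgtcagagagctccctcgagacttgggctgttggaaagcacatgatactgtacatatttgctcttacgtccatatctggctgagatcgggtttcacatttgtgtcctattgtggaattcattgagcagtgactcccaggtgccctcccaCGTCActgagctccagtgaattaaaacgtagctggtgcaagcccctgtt
Perm1, chr4:156215677-156215926, plus strand: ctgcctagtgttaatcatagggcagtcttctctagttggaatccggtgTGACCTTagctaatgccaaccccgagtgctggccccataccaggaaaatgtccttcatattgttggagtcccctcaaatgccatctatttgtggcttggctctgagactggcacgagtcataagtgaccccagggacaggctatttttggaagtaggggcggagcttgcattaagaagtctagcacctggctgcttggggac
Ppara, chr15:85735526-85735775, plus strand: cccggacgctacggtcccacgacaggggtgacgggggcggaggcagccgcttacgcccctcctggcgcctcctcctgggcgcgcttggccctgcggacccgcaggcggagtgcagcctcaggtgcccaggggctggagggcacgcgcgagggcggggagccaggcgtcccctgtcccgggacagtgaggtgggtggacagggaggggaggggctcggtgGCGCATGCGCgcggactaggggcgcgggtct

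Windows of 250 bases were found for 9 of the 10 genes (14 windows, since some genes have several start sites), and 6 motifs were searched on both strands. The full ATF/CRE palindrome, TGACGTCA, was in none of the 14 and in 1.55% of all 32851 windows. The study reports this palindrome in the promoter region of Ppargc1a in mouse and human. Where that site lies relative to the start site used here was not tested. Its absence from these windows therefore does not show that the Ppargc1a promoter lacks it. The half-site, TGACG, which the palindrome contains, was in windows of Ppargc1a, Esrrb and Ppara, and in 17.8% of all windows. In Ppargc1a the half-site lay on the opposite strand with its first base at −49 from the start site, and in Ppara it lay at −222. The ERR element AAGGTCA occurred in the window of Perm1, on the opposite strand at −202, and in 4.08% of all windows. A match to the NRF1 motif, GCGC and TGCGC with any base between, was found in Ppara at −31 and in 3.74% of all windows, and the GABPA motif CCGGAAG in the window of Gabpa itself at −93 and in 6.91% of all windows. The PPAR element, AGGTCA repeated after a gap of 1 base, was in none of the 14 windows and in 0.0335% of all windows. These are matches of letters in short windows, and binding was not measured.

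Per base of exon, Perm1 was the most abundant of the 10 in every group, and Nrf1 the least. Levels between genes were compared as CPM per kilobase of annotated exon (RPKM, from the TMM-normalised CPM and GENCODE M21 exon lengths). In Atf3+/+FS6KD hearts the mean level was 122 ± 6.05 RPKM (SD, n = 4) for Perm1, 37.2 ± 6.56 RPKM for Esrra and 30.3 ± 4.38 RPKM for Ppara. It was 19.0 ± 4.97 RPKM for Ppargc1b, 18.1 ± 2.50 RPKM for Ppargc1a, 14.1 ± 1.18 RPKM for Gabpa and 13.04 ± 0.895 RPKM for Esrrg. Below these came Esrrb at 8.24 ± 0.774 RPKM, Ppard at 5.27 ± 0.693 RPKM and Nrf1 at 1.17 ± 0.0652 RPKM.

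Between neighbours in that order, Perm1 stood clear of Esrra, and Esrrg, Esrrb, Ppard and Nrf1 did not overlap with each other. From Esrra through Ppara, Ppargc1b, Ppargc1a and Gabpa to Esrrg, the libraries of each neighbouring pair overlapped, so the order of neighbours is not settled by these hearts. Genes farther apart could be separate. The lowest Esrra value, 31.2 RPKM, was above the highest of Ppargc1b, 25.5 RPKM, and of those after it. The lowest Ppara value, 24.5 RPKM, was above the highest of Ppargc1a, 20.8 RPKM, and of those after it. The same 3 genes, Esrrb, Ppard and Nrf1, held the last 3 places in all 4 groups. In the AAV experiment Ppargc1a exceeded Ppargc1b without overlap in both groups, with 15.9 ± 0.938 RPKM against 12.5 ± 1.13 RPKM (SD, n = 3) in the libraries labelled shCtrl.

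**Figure D1:**
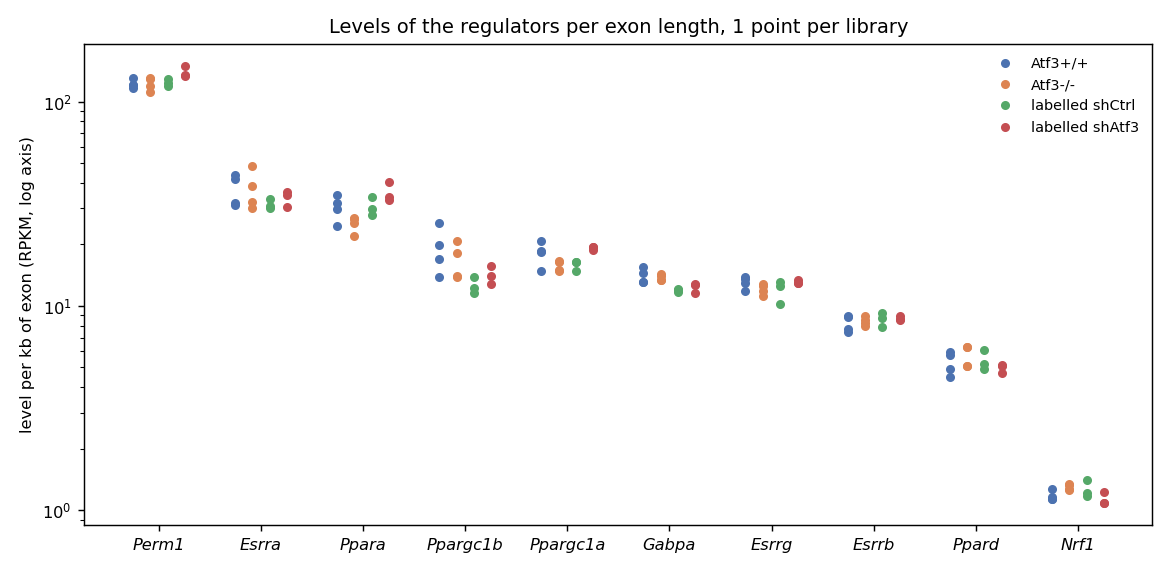
Level of each of the 10 genes per exon length (RPKM, log axis), 1 point per library, in the 4 groups shown by colour and ordered by the mean in Atf3+/+FS6KD. Perm1, at 122 RPKM in Atf3+/+FS6KD, lies above the other 9 genes and Nrf1, at 1.17 RPKM, below them in every library.

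None of the 10 genes passed the threshold of adjusted p below 0.05 in either experiment in edgeR's quasi-likelihood test. In Atf3-/- against Atf3+/+ hearts, 5 of the 10 had a higher and 5 a lower mean, all 10 overlapped between the genotypes (5.71% of all genes did not), and the median log2 fold change was −0.01, against 0.00 over all 15592 genes tested. Ppara, lower in Atf3-/- hearts, had an unadjusted p below 0.05, that is 1 of 10, beside 10.1% of all genes, and 4.69% in that direction. At the adjusted threshold the share called was 0 of all genes too, so no gene of the table was called there (smallest adjusted p 0.0743; 1575 genes had an unadjusted p below 0.05, limma-trend called 0 and DESeq2 208).

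In the libraries labelled shAtf3, 8 of the 10 were higher and 2, Ppard and Nrf1, lower, and their median log2 fold change was 0.12 against 0.00 over all 15225 genes. The share of all genes called was 0.539%, and none of the 10 was among them. At an unadjusted p below 0.05 stood 3 of the 10 (Ppargc1a, Perm1 and Ppara, all higher), beside 12.7% of all genes, and 5.05% in that direction. DESeq2 called 308 of the 15225 genes, among them 1 of the 10, Ppargc1a. Only Ppargc1a and Perm1 had groups without overlap, 2 of 10, beside 18.4% of all genes.

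**Figure D2:**
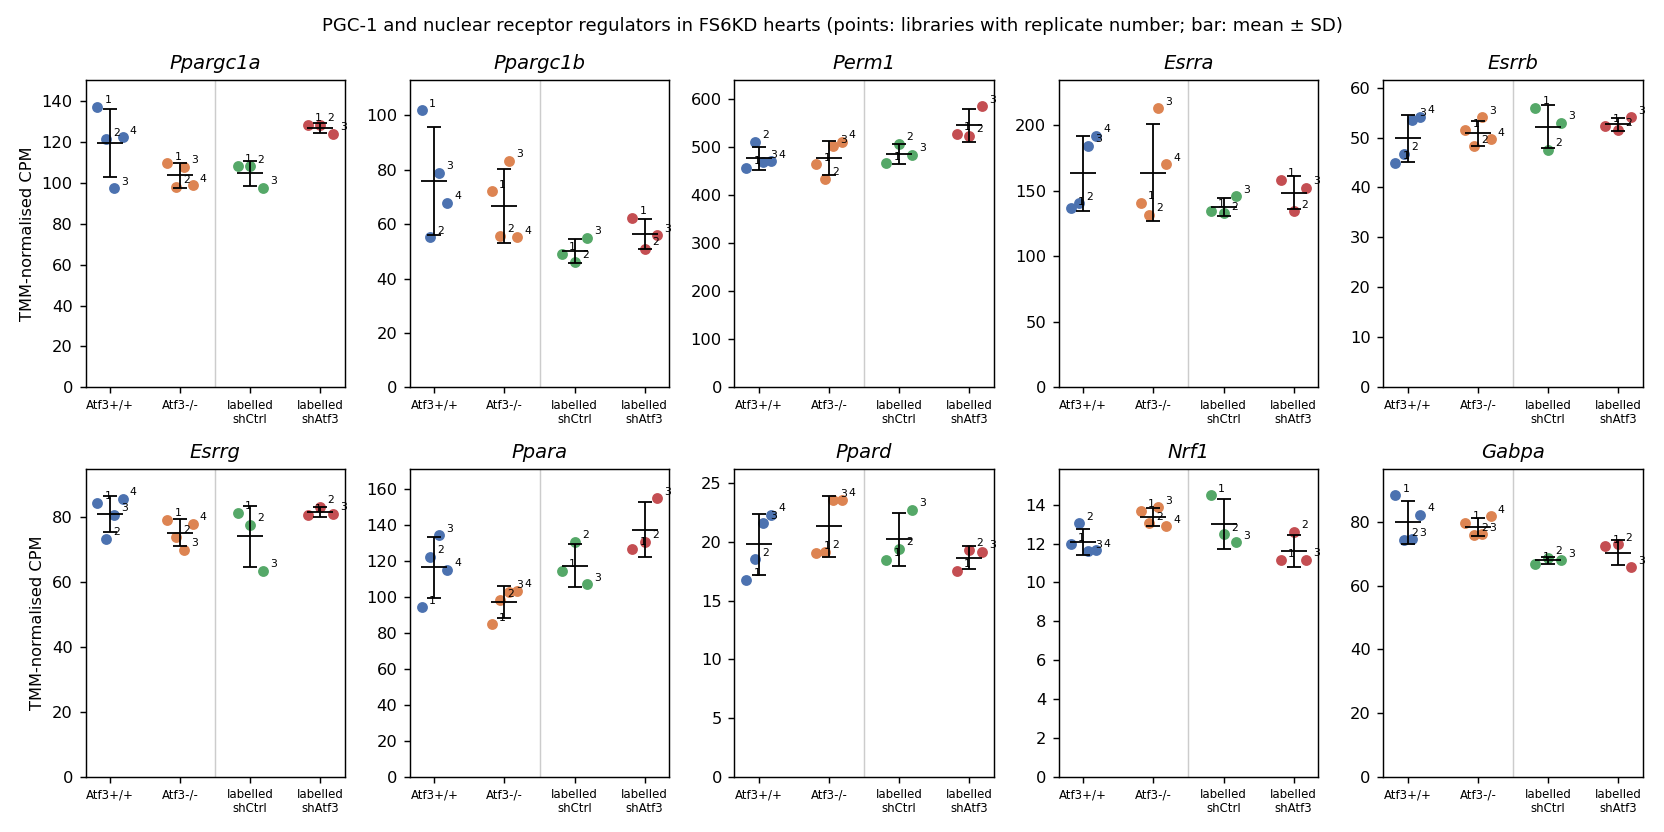
TMM-normalised CPM of each gene in every library (points, numbered by replicate), with the mean and SD of each group as bars, in the knockout experiment (left of each grey line, n = 4 per group) and the AAV experiment (right, n = 3 per group). The groups are separate in the AAV experiment for Ppargc1a and Perm1, and Esrra in the knockout experiment splits by replicate number (1 and 2 low, 3 and 4 high) in both genotypes. Ppard values are those of 1 of its 2 identical entries.

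Among the coactivators, Ppargc1a was the member with the smallest p-value in the AAV experiment, and by the labels its difference had the opposite sign in the knockout experiment. Ppargc1a (GRCm38 chr5:51454249-52115853, minus strand) was at 137, 121, 97.4 and 122 CPM in the Atf3+/+FS6KD hearts (in the order of their replicate numbers, as throughout), and the Atf3-/-FS6KD hearts, in the same order, were at 110, 98.2, 108 and 98.8 CPM. All 4 Atf3-/- hearts lay below the mean of the controls, but the third control was the lowest heart of the 8 and the groups overlapped. The log2 fold change was −0.21 (SE 0.10, 95% confidence interval −0.43 to 0.02, edgeR adjusted p = 0.527). Within the shallow replicates 1 and 2 the log2 fold change was −0.31, and within the deep replicates 3 and 4 it was −0.09. Without Atf3+/+FS6KD replicate 1, the highest heart, it was −0.13.

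In the AAV experiment, the Ppargc1a level was 109, 108 and 97.6 CPM in the libraries labelled shCtrl, and 129, 128 and 124 CPM in those labelled shAtf3. All 3 libraries labelled shAtf3 were above all 3 labelled shCtrl, with a mean of 127 ± 2.61 CPM against 105 ± 6.19 CPM (SD, n = 3). On the log2 scale this was 0.28 (SE 0.06, interval 0.14 to 0.42), a mean 21.2% higher, with an unadjusted edgeR p of 0.00164 and an adjusted p of 0.121. Over the alternatives the fold change stayed between 0.23 and 0.30 and the adjusted p between 0.0131 (DESeq2, the only call) and 0.432.

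**Figure D3:**
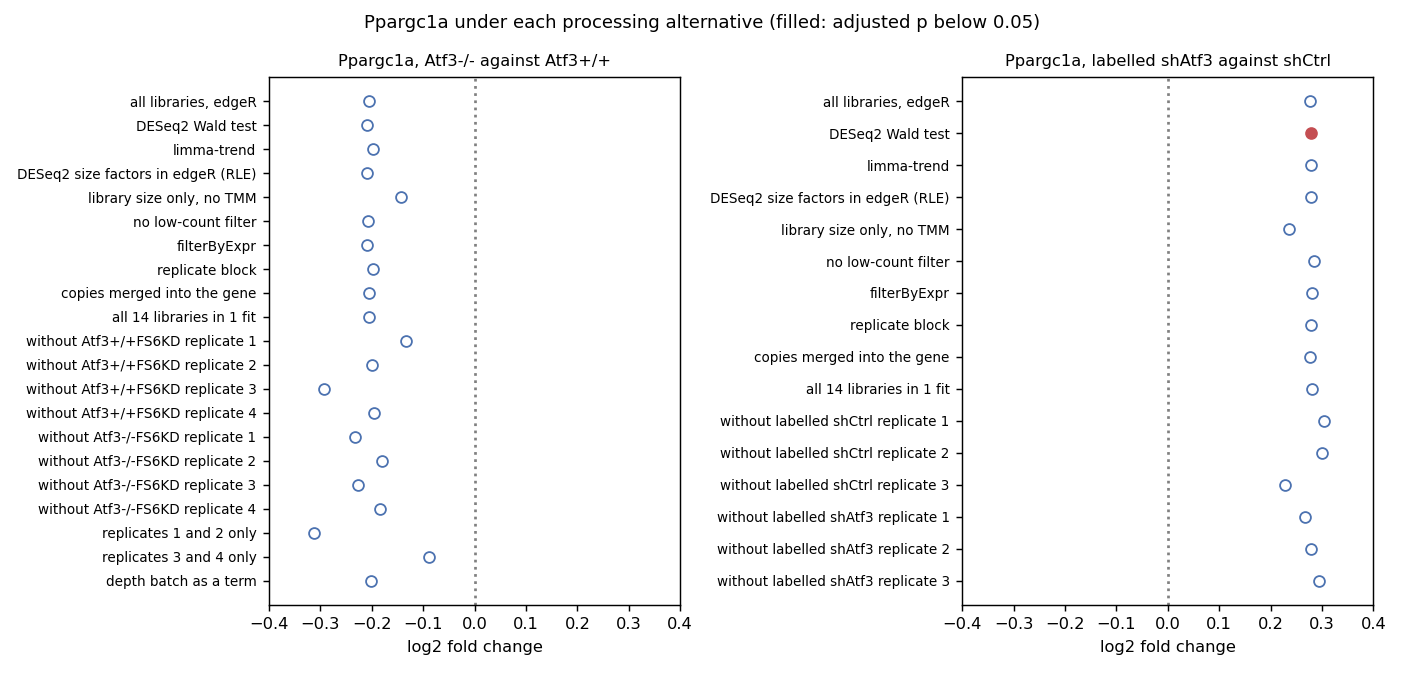
Log2 fold change of Ppargc1a in each comparison (x axis) under every processing alternative (rows), with filled points for an adjusted p below 0.05. The values stay between −0.31 and −0.09 in the knockout experiment and between 0.23 and 0.30 in the AAV experiment, and 1 point, the DESeq2 test of the AAV experiment, is filled.

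Tested directly in 1 fit of all 14 libraries, the effects on Ppargc1a in the AAV and knockout experiments differed by 0.49 on the log2 scale (SE 0.13, interval 0.21 to 0.76), with an edgeR adjusted p of 0.0967, so the difference missed the threshold. Of the 15708 genes in this test 0.166% were called and 17% had an unadjusted p below 0.05. Among the 10 regulators, 0 were called, and 4 had an unadjusted p below 0.05: Ppargc1a, Ppara, Nrf1 and Esrrg. Leaving out Atf3+/+FS6KD replicate 3, the control with the lowest Ppargc1a, gave 0.57 and an adjusted p of 0.0225, but this setting called 168 of 15690 genes, against 26 with all libraries. DESeq2 gave an adjusted p of 0.0198 and called 669 genes. The range over the alternatives that kept the labels was 0.0198 to 0.199. With the AAV groups turned, the effects on Ppargc1a had the same sign and differed by −0.07 (SE 0.13, interval −0.35 to 0.20, edgeR adjusted p = 0.99995), and 0 of the 10 and 0 of all genes were called (0 and 651 with an unadjusted p below 0.05).

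Ppargc1b, the partner coactivator with a largely shared set of targets, varied most among the 10 in Atf3+/+FS6KD. It was at 102, 55.2, 78.9 and 67.8 CPM in Atf3+/+FS6KD and at 72.1, 55.7, 83.4 and 55.2 CPM in Atf3-/-FS6KD, a coefficient of variation of 26.1% in the controls. The genotypes overlapped throughout, and the log2 fold change of −0.19 had an interval of −0.63 to 0.25 (SE 0.20, edgeR adjusted p = 0.765). That value rested on the first control, the highest of the 8 hearts, since it was −0.02 without Atf3+/+FS6KD replicate 1, and without any other single heart it lay between −0.32 and −0.11. It was 49.1, 46.1 and 54.98 CPM in the libraries labelled shCtrl and 62.3, 51.0 and 55.9 CPM in those labelled shAtf3, which overlap, and the edgeR log2 fold change was 0.17 (SE 0.09, adjusted p = 0.474), or 0.09 without the first library labelled shAtf3.

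Perm1 (chr4:156203262-156221307) was at 456, 510, 468 and 470 CPM in Atf3+/+FS6KD and at 463, 434, 501 and 510 CPM in Atf3-/-FS6KD. The knockout hearts lay on both sides of the control mean, and the log2 fold change was 0.00 (SE 0.07, interval −0.15 to 0.16, edgeR adjusted p = 0.991). Its level was 466, 506 and 483 CPM in the libraries labelled shCtrl and 527, 522 and 584 CPM in those labelled shAtf3. The groups did not overlap, and the log2 fold change was 0.17 (SE 0.07, interval 0.02 to 0.31, adjusted p = 0.335). The effects of the 2 experiments on Perm1 differed by 0.17 (SE 0.10, adjusted p = 0.400), which is no call, and with the AAV groups turned by −0.17 (SE 0.10, adjusted p = 0.99995), and it was 0.06 by library size alone.

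**Figure D4:**
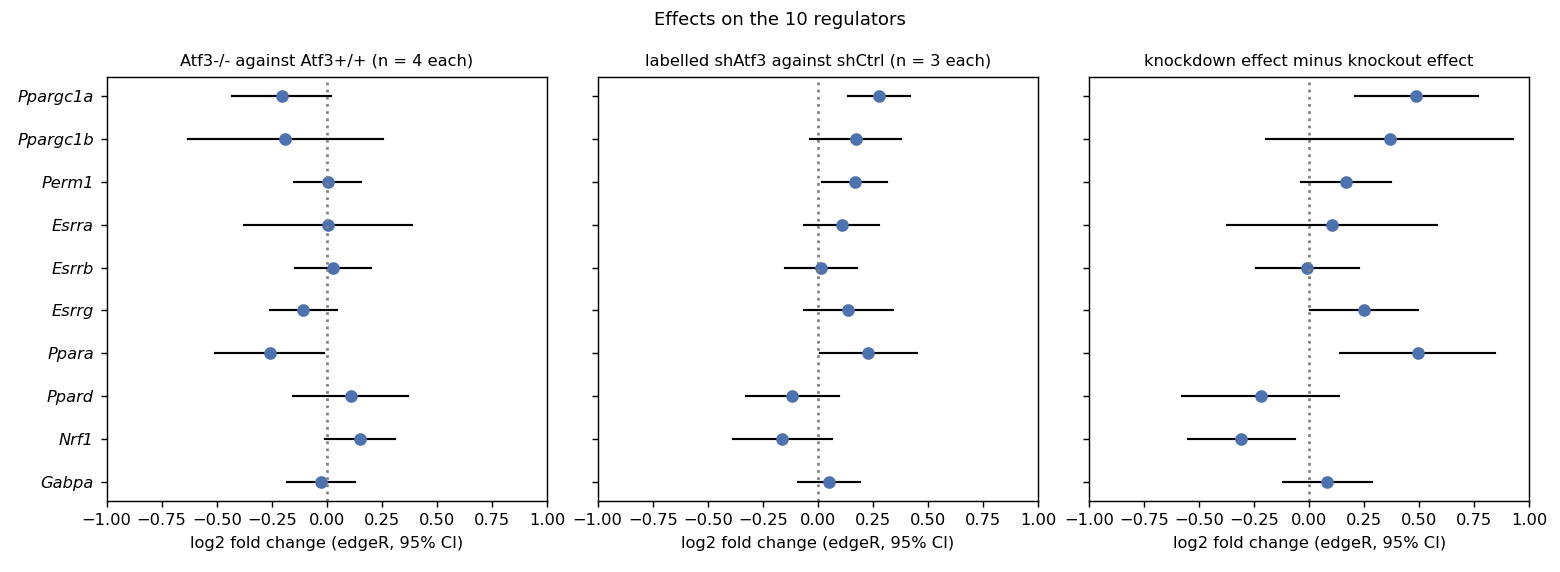
Log2 fold change (points) with its 95% confidence interval (lines) for each of the 10 genes in the knockout experiment, the AAV experiment and the difference between the 2 effects, from edgeR. Intervals exclude 0 for Ppara in the knockout experiment, for Ppargc1a, Perm1 and Ppara in the AAV experiment, and for Ppargc1a, Esrrg, Ppara and Nrf1 in the difference, and none of these had an adjusted p below 0.05.

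Of the estrogen-related receptors, the constitutively active partners of PGC-1, none differed between the groups beyond the spread of the hearts. Esrra (chr19:6910977-6922048) was at 137, 141, 184 and 192 CPM in Atf3+/+FS6KD and, in the same order, at 141, 132, 213 and 170 CPM in Atf3-/-FS6KD. In both genotypes the shallow replicates 1 and 2 lay below the deep replicates 3 and 4, with no overlap, while the genotypes overlapped. Genotype gave a log2 fold change of 0.01 (SE 0.17, interval −0.38 to 0.39, edgeR adjusted p = 0.993), and within the batches it was −0.02 and 0.03. Between the depth batches, with genotype in the fit, Esrra differed by 0.47 (SE 0.07, adjusted p = 0.0544), and Ppard by 0.31 (SE 0.05, adjusted p = 0.0596), both just short of the threshold, in a comparison chosen after the data were seen, where 0.353% of all genes were called. What else set these replicates apart, besides depth, cannot be told apart from it here.

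After AAV delivery Esrra was at 135, 133 and 146 CPM in the libraries labelled shCtrl and at 159, 134 and 153 CPM in those labelled shAtf3, a log2 fold change of 0.11 (SE 0.08, edgeR adjusted p = 0.608), which ran from 0.06 without the first library labelled shAtf3 to 0.18 without the second. Esrrg, the family member prominent in oxidative muscle, was at 73.2 to 85.6 CPM in Atf3+/+FS6KD and 69.8 to 79.1 CPM in Atf3-/-FS6KD, with all 4 knockout hearts below the control mean and −0.11 as the log2 fold change (SE 0.07, adjusted p = 0.618). The libraries labelled shCtrl gave 81.1, 77.6 and 63.3 CPM for Esrrg, and those labelled shAtf3 80.5, 83.1 and 80.8 CPM. The groups overlapped and the log2 fold change was 0.14 (SE 0.09, adjusted p = 0.567), but 0.04 without the third library labelled shCtrl, the lowest of the 6. Between the experiments the effects on Esrrg differed by 0.25 (SE 0.11, adjusted p = 0.281), and with the AAV groups turned by −0.03 (interval −0.28 to 0.21). This difference was 0.15 both without the third library labelled shCtrl and by library size alone. Esrrb, the family member best known from early development, had log2 fold changes of 0.03 (SE 0.08, adjusted p = 0.924) and 0.01 (SE 0.07, adjusted p = 0.960), at 44.9 to 56.0 CPM in all 14 libraries.

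Of the PPARs, Ppara, the receptor that drives fatty acid oxidation genes in the heart, had opposite differences in the 2 experiments by the labels. Ppara (chr15:85734910-85806851) was at 94.1, 122, 134 and 115 CPM in Atf3+/+FS6KD and at 84.6, 98.0, 103 and 103 CPM in Atf3-/-FS6KD. All 4 knockout hearts were below the control mean, and the first control was within their range. The log2 fold change was −0.26 (SE 0.11, interval −0.51 to −0.01), with an unadjusted edgeR p of 0.0418 and an adjusted p of 0.476, and within the depth batches it was −0.24 and −0.28.

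After AAV delivery Ppara was at 114, 130.4 and 107 CPM in the libraries labelled shCtrl and at 127, 130.5 and 155 CPM in those labelled shAtf3. The highest control reached the treated range, and the log2 fold change was 0.23 (SE 0.10, interval 0.01 to 0.45), with an unadjusted edgeR p of 0.0435 and an adjusted p of 0.375. It fell to 0.13 (adjusted p = 0.711) without the third library labelled shAtf3, the highest of the 6. The difference between the 2 effects on Ppara was 0.49 (SE 0.16, interval 0.14 to 0.84), as large as that of Ppargc1a and more variable, with an adjusted p of 0.153. With the AAV groups turned it was 0.03 (SE 0.16, interval −0.32 to 0.38, edgeR adjusted p = 0.99995).

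Ppard, the broadly expressed paralogue, is entered a second time under a numbered symbol with the same values, so that its reads appear to have been split, and the CPM values given are those of 1 entry, whereas its RPKM levels above are the sum of both. It was at 16.8, 18.5, 21.6 and 22.3 CPM in Atf3+/+FS6KD and at 19.1, 19.2, 23.6 and 23.6 CPM in Atf3-/-FS6KD, again lower in the shallow replicates. Its log2 fold change in edgeR was 0.11 in the knockout experiment (SE 0.12, adjusted p = 0.775) and −0.12 (SE 0.09, adjusted p = 0.662) in the AAV experiment, where the libraries labelled shAtf3 were at 17.5 to 19.3 CPM and those labelled shCtrl at 18.5 to 22.8 CPM. Both values rested in part on 1 library, since they were 0.04 without Atf3+/+FS6KD replicate 1 and −0.02 without the third library labelled shCtrl.

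The nuclear respiratory factors showed no called difference. Nrf1 was at 12.0, 13.05, 11.6 and 11.7 CPM in Atf3+/+FS6KD and at 13.7, 13.05, 13.9 and 12.9 CPM in Atf3-/-FS6KD. All 4 knockout hearts exceeded the control mean and only the second control reached their range, with a log2 fold change of 0.15 (SE 0.07, interval −0.01 to 0.31, edgeR adjusted p = 0.512). In the libraries labelled shCtrl it was at 14.5, 12.5 and 12.1 CPM and in those labelled shAtf3 at 11.1, 12.6 and 11.2 CPM, all 3 below the control mean, and the log2 fold change came to −0.16 (SE 0.10, adjusted p = 0.540), but −0.08 without the first library labelled shCtrl, the highest of the 6. The effects differed by −0.31 (SE 0.11, interval −0.55 to −0.07, adjusted p = 0.190), and with the AAV groups turned by 0.01 (interval −0.24 to 0.25). Gabpa, the DNA-binding subunit of its complex, was at 74.4 to 88.3 CPM in Atf3+/+FS6KD and 75.9 to 81.7 CPM in Atf3-/-FS6KD, and its log2 fold changes were −0.03 (SE 0.07, adjusted p = 0.914) in the knockout and 0.05 (SE 0.06, adjusted p = 0.795) in the AAV experiment.

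Between the 2 experiments, which share no library, by the labels 7 of the 10 genes had differences of opposite sign and 3 (Perm1, Esrra and Esrrb) of the same sign, beside 63.4% of opposite sign among the 15109 genes tested in both. With the AAV groups turned, 3 of the 10 and 36.6% of all genes were of opposite sign. The 3 of the same sign had log2 fold changes of at most 0.03 in the knockout experiment.

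The known targets of the ERRs, genes of the respiratory chain and citric acid cycle, lay to opposite sides of 0 in the 2 experiments by the labels. Of 25 targets, 24 were lower in Atf3-/- hearts (median log2 fold change −0.13), beside 49.8% of all genes, and 9 of them had an unadjusted p below 0.05, beside 4.69%. Of the same 25, 24 were higher in the libraries labelled shAtf3 (median 0.12), beside 49.1% of all genes, and 9 had an unadjusted p below 0.05, beside 5.05%, with 16 of 25 groups not overlapping beside 8.48% of all genes higher without overlap. With the AAV groups turned, 24 of 25 were lower there too (median −0.12). None of the 25 was called in edgeR in either experiment. Target lists were set with earlier results of these data known, and the genes are not independent of each other.

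By the labels, markers of cardiomyocytes and fibroblasts also lay to opposite sides of 0 in the 2 experiments. In the knockout experiment 7 of 8 cardiomyocyte markers were lower (median −0.13) and 8 of 8 fibroblast markers higher (median 0.39). In the AAV experiment 7 of 8 cardiomyocyte markers were higher (median 0.11) and 8 of 8 fibroblast markers lower (median −0.67), 4 of them called. With the AAV groups turned, 7 of 8 cardiomyocyte markers were lower and 8 of 8 fibroblast markers higher there, as in the knockout experiment. Summed fibroblast markers ranged from 1697 to 2039 CPM in Atf3+/+FS6KD, 2015 to 2748 CPM in Atf3-/-FS6KD, 2341 to 3206 CPM in the libraries labelled shCtrl and 1742 to 1827 CPM in those labelled shAtf3. Macrophage markers were higher for 7 of 8 in the knockout and lower for 7 of 8 in the AAV experiment, and endothelial markers were higher for 6 of 8 in both. The atrial markers that passed the filter were lower for 4 of 4 in the AAV experiment (median −0.70, 1 called) and higher for 3 of 4 in the knockout experiment. Summed skeletal muscle markers, of which 2 of 8 were tested, were at 3464 to 5823 CPM in Atf3+/+FS6KD and 2429 to 3098 CPM in Atf3-/-FS6KD, with no overlap. They were at 3411 to 4001 CPM in the libraries labelled shCtrl and 3871 to 4558 CPM in those labelled shAtf3, which overlap. The other 6 of 8 stayed below 1 CPM in all libraries, so this sum reflects 2 genes and is not a measure of skeletal muscle. Fewer cells of a type and less RNA per cell cannot be told apart in whole hearts, and the part of these markers in the values of the regulators and their targets was not tested.

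Sod2, the superoxide dismutase of the mitochondrial matrix, had the smallest p-value of the ERR targets in the AAV experiment. It was at 662 to 675 CPM in the libraries labelled shCtrl and at 773 to 796 CPM in those labelled shAtf3, with a log2 fold change of 0.23 (SE 0.05, edgeR adjusted p = 0.102, range over alternatives 0.00606 to 0.373). In the knockout experiment its log2 fold change was −0.09 (adjusted p = 0.665). Mfn2, which fuses mitochondrial outer membranes, had the smallest p-value in the knockout experiment, at 665 to 820 CPM in Atf3+/+FS6KD and 484 to 641 CPM in Atf3-/-FS6KD. The log2 difference was −0.43 (SE 0.10, edgeR adjusted p = 0.277), but −0.20 once a second entry of the gene was added to it, and its adjusted p ranged over the alternatives from 0.00980 (DESeq2, a call) to 0.717. Vegfa, the angiogenic growth factor, was the only ERR target with a higher mean in Atf3-/- hearts (log2 fold change 0.17, adjusted p = 0.552, and 0.10 without Atf3+/+FS6KD replicate 2), and Mb, which encodes myoglobin, the only one with a lower mean in the libraries labelled shAtf3 (−0.04, adjusted p = 0.812).

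PPAR targets, genes of fatty acid uptake, storage and oxidation, were counted in the same way. In Atf3-/- hearts 18 of 27 were lower (median −0.05), beside 49.8% of all genes, with 1 at an unadjusted p below 0.05, beside 4.69%, and under scaling by library size alone the median was 0.01. In the libraries labelled shAtf3 23 of 27 were higher (median 0.13), beside 49.1% of all genes, with 8 at an unadjusted p below 0.05, beside 5.05%, and none called, beside 0.539%. Turning the AAV groups made 4 higher and 23 lower (median −0.13). The median in Atf3-/- hearts was also 0.00 without Atf3-/-FS6KD replicate 4 and 0.02 in replicates 1 and 2 only, and that of the AAV experiment ran from 0.07 (without the first library labelled shAtf3) to 0.21 (without the second). Hadha, the α subunit of the trifunctional protein of β-oxidation, was at 1487 to 1526 CPM in the libraries labelled shCtrl and 1611 to 1787 CPM in those labelled shAtf3 (log2 fold change 0.18, SE 0.06, edgeR adjusted p = 0.243). Lpl, the lipoprotein lipase that releases fatty acids, was at 5190 to 5572 CPM in Atf3+/+FS6KD and 4352 to 4940 CPM in Atf3-/-FS6KD (−0.18, SE 0.06, adjusted p = 0.389, and −0.12 by library size alone).

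Pdk4, a kinase that restrains glucose oxidation, varied too widely to compare, at 88.0 to 705 CPM in Atf3+/+FS6KD and 231 to 875 CPM in Atf3-/-FS6KD (log2 fold change 0.62, SE 0.60, edgeR adjusted p = 0.744, from 0.23 without Atf3-/-FS6KD replicate 1 to 1.31 without Atf3+/+FS6KD replicate 1). Acadl, a long-chain acyl-CoA dehydrogenase, had a log2 fold change of −0.21 (adjusted p = 0.590) in the AAV experiment that became 0.13 once its second entry was added, so its direction is uncertain.

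Factors that copy or transcribe mitochondrial DNA, which NRF1 and GABPA control, were lower for 8 of 10 in Atf3-/- hearts (median −0.05, but 0.01 under library size alone) and higher for 10 of 10 in the libraries labelled shAtf3 (median 0.06), or, with the AAV groups turned, lower for 10 of 10. None of the 10 was called. Tfb2m, a transcription factor of mitochondria, was at 88.3 to 92.4 CPM in Atf3+/+FS6KD and 79.1 to 84.5 CPM in Atf3-/-FS6KD (log2 fold change −0.15, SE 0.05, edgeR adjusted p = 0.389). It was −0.09 by library size alone and −0.10 in replicates 1 and 2 only, and its adjusted p ranged over the alternatives from 0.0574 (DESeq2) to 0.883. Polg, the DNA polymerase of mitochondria, had 0.01 in the knockout experiment (SE 0.08, adjusted p = 0.977). Tfam, which packages and transcribes mitochondrial DNA, was at 55.3 to 64.6 CPM in the libraries labelled shCtrl and 67.1 to 70.3 CPM in those labelled shAtf3 (0.16, SE 0.07, adjusted p = 0.393, but 0.09 without the third library labelled shCtrl), and its log2 fold change in the knockout experiment was 0.00.

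Partners and coregulators of the 10 genes were lower for 13 of 20 in Atf3-/- hearts (median −0.04) and higher for 12 of 20 in the libraries labelled shAtf3 (median 0.02), and both medians changed sign under library size alone. The knockout median was also 0.01 without Atf3-/-FS6KD replicate 2 and 0.01 in replicates 3 and 4 only, and with the AAV groups turned 8 of 20 were higher and 12 lower there. Gabpb1, the activating partner of GABPA, was at 10.97 to 12.2 CPM in Atf3+/+FS6KD and 12.4 to 13.7 CPM in Atf3-/-FS6KD (log2 fold change 0.21, SE 0.07, edgeR adjusted p = 0.404). Ncor1, a corepressor of nuclear receptors, was at 151 to 158 CPM and 123 to 146 CPM in the same groups (−0.20, SE 0.06, adjusted p = 0.389). Ncoa2, a coactivator, had −0.16 in the knockout (adjusted p = 0.404) and 0.12 in the AAV experiment (adjusted p = 0.484), the latter 0.08 by library size alone. Kat2a, the acetyltransferase GCN5 that acts on PGC-1α, was at 18.3 to 20.6 CPM in the libraries labelled shCtrl and 16.5 to 17.8 CPM in those labelled shAtf3 (−0.20, SE 0.08, adjusted p = 0.320).

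Upstream regulators of Ppargc1a were lower for 17 of 24 in Atf3-/- hearts (median −0.05, but 0.02 under library size alone) and higher for 17 of 24 in the libraries labelled shAtf3 (median 0.05), with none called. The knockout median was 0.01 in replicates 3 and 4 only, and with the AAV groups turned 7 of 24 were higher and 17 lower there. Thrb, a thyroid hormone receptor, was at 24.7 to 25.0 CPM in the libraries labelled shCtrl and 28.7 to 32.4 CPM in those labelled shAtf3 (log2 fold change 0.29, SE 0.07, edgeR adjusted p = 0.146). Crtc2, a coactivator of CREB, had 0.18 (SE 0.06, adjusted p = 0.392) in the knockout and −0.17 (SE 0.07, adjusted p = 0.373) in the AAV experiment, with groups that did not overlap in either. Foxo3 had −0.32 in the knockout experiment (SE 0.13, adjusted p = 0.458), and Esr1, the estrogen receptor, at 1.26 to 3.19 CPM in the AAV experiment, had −0.80 there (SE 0.21, adjusted p = 0.172).

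**Figure D5:**
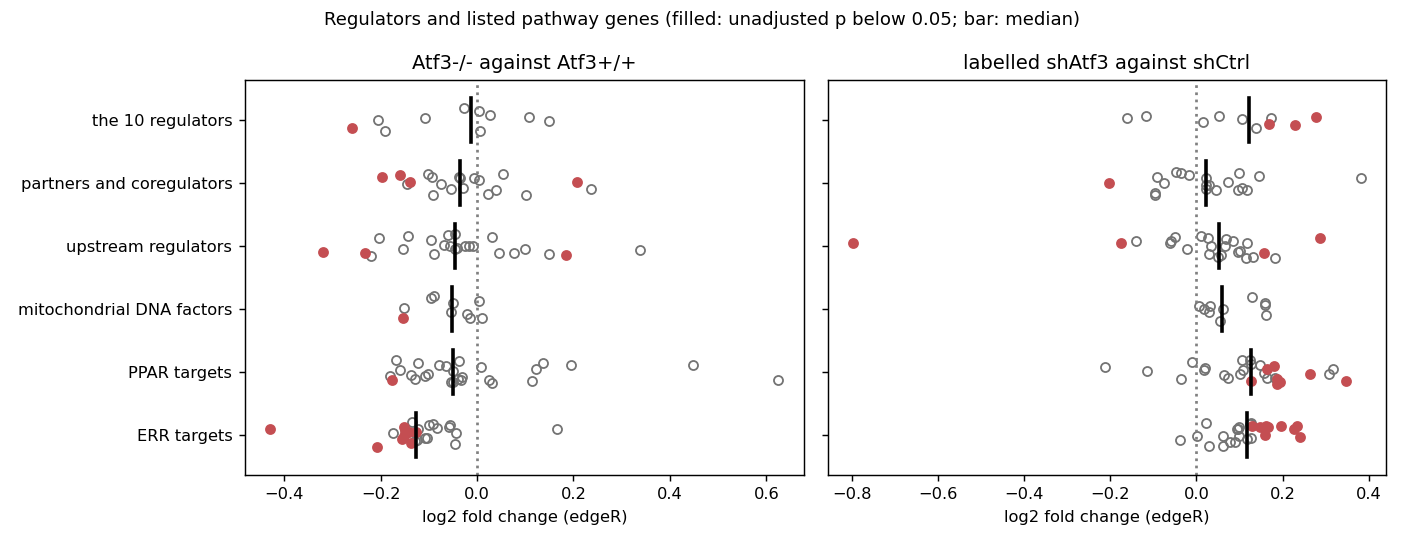
Log2 fold change (x axis) of the 10 regulators and of each gene of the 5 lists (rows) in the knockout and the AAV experiment, with filled points for an unadjusted p below 0.05 and a bar at the median. The ERR targets lie to the left in the knockout experiment (median −0.13, 24 of 25 below 0) and to the right in the AAV experiment by the labels (median 0.12, 24 of 25 above 0).

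From heart to heart within the groups, no pair of the regulators tested passed the threshold for varying together. Over the 14 libraries, with group means removed, 6 pairs were tested by permutation within groups (two-sided, Benjamini-Hochberg over 6). Ppargc1a with Ppara had Pearson's r = −0.60 (Spearman's rho −0.42, permutation p = 0.106 and 0.194, adjusted 0.542 and 0.356), which fell in size to −0.09 without the 2 hearts farthest from the median of Ppargc1a, so it rests on those. Within the experiments this pair had r = −0.82 over the 8 knockout libraries (rho −0.76, permutation p = 0.0593 and 0.0544, adjusted 0.356 and 0.327) and r = 0.24 over the 6 AAV libraries (rho 0.31, permutation p = 0.778 and 0.722, adjusted 0.833 and 0.750). Ppargc1a with Perm1 had r = −0.04 (rho −0.13, permutation p = 0.891 and 0.666, adjusted 0.891 and 0.666). With Nrf1 it had r = 0.38 (rho 0.49, permutation p = 0.181 and 0.0460, adjusted 0.542 and 0.276), and with Esrra r = −0.30 (rho −0.19, permutation p = 0.472 and 0.601). With Esrrg it had r = 0.30 (rho 0.49, permutation p = 0.362 and 0.146), which was 0.94 in the AAV libraries (permutation p = 0.138) and 0.12 in the knockout libraries. Perm1 with Esrra had r = 0.39 (rho 0.40, permutation p = 0.289 and 0.237, adjusted 0.543 and 0.356) and 0.62 without the 2 farthest hearts. The adjusted permutation p of Pearson's r was between 0.542 and 0.891 for the 6 pairs.

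The genes whose library-to-library deviations were most like those of Esrra were Ncdn, Apba3 and Dazap1 (Pearson's r 0.97, 0.96 and 0.96 over 14 libraries, group means removed, out of 9230 genes compared). Those most like Ppargc1a were Ppp2r1b, Fastkd1 and Lta4h (0.88, 0.87 and 0.87), and those most like Perm1 were Gpr157, Rarg and Syngr2 (0.89, 0.88 and 0.88). These are the largest of 9230 correlations for each gene, and the size that unrelated genes would reach by chance was not computed. The libraries share their depth batches, and the values of Esrra in the knockout experiment did not overlap between them.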

How the data were processed

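Whole hearts of mice had been profiled in 14 stranded mRNA libraries of 4 groups. For the knockout experiment the study states mapping to GRCm38.p6 and counting with featureCounts 2.0.0; the aligner, annotation and use of strand are not given in the sources used here. The deposited tables hold estimated counts per gene (in each library 19.3% to 24.4% of them were not whole), neither normalized nor pooled, whereas the design had assumed whole counts. They were rounded before every test. Levels are TMM-normalised CPM, scaled within each experiment, with log2 values computed at a prior count of 2. The precision of low values is limited by depth, from 30085432 to 134920825 counts a library.

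Genes above 1 CPM in at least 1 library were tested with edgeR 4.0.16 in R 4.3.3 (TMM and the quasi-likelihood F-test, two-sided, called at a p of 0.05 after Benjamini-Hochberg adjustment over all genes tested) within each experiment, and the difference of effects on all 14 libraries. DESeq2 1.42.0 and limma 3.58.1 were alternatives. The study had used a test per gene at an unadjusted threshold. No pair of replicates agreed within sampling noise (smallest chi-square per gene 7.31). The labels number the replicates without naming the animal, so p-values measure the spread between these samples. A second entry of a gene under a numbered symbol, as for Ppard, was read as a copy, so those values are uncertain.

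Members and lists were chosen with earlier results of these data known. Genes named are the 10 members, from each list the gene with the smallest unadjusted p in each direction and comparison (and any with an adjusted p below 0.05, of which there were 0), the 3 most like Ppargc1a, Esrra and Perm1 (above 3 log2 CPM on average), and Atf3 and Ndufs6. All deposited sample columns were used (0 left out).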

Additional observations from a re-analysis of the deposited data

How the results depend on the processing

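Across 520 values of the 10 regulators under the alternatives that kept the labels, 483 kept their direction and side of the threshold, 34 changed sign and 3 became calls. DESeq2 called 1 of the 10 in the AAV experiment and 1 in the difference between experiments, Ppargc1a both times (0.28, adjusted p 0.0131, and 0.49, adjusted p 0.0198), and 2 list genes in the knockout and 1 in the AAV experiment. Over all genes DESeq2 called 208 in the knockout experiment, 308 in the AAV experiment and 669 in the difference. Leaving out Atf3+/+FS6KD replicate 3 also gave 1 call of a regulator in the difference (Ppargc1a), where 168 of all genes were called. In the knockout experiment no alternative called a regulator. The cause of these differences was not tested.

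Most signs that changed were of fold changes near 0, and Acadl, at −0.21, was an exception. In the knockout experiment Perm1 was −0.00075 with DESeq2, −0.0011 with DESeq2's size factors, −9.1e-05 with filterByExpr, −0.10 in replicates 1 and 2 only and −0.031 to 0.047 without 1 replicate. Esrra was −0.0028 with limma-trend, −0.0027 with the replicate block, −0.021 in replicates 1 and 2 only and −0.15 to 0.098 without 1 replicate. Esrrb was −0.056 in replicates 3 and 4 only and −0.019 to 0.070 without 1, Gabpa 0.032 by library size alone, 0.0076 in replicates 3 and 4 only and −0.062 to 0.023 without 1, and Polg −0.14 in replicates 1 and 2 only and −0.059 to 0.074 without 1. In the AAV experiment Esrrb was −0.026 by library size alone and −0.049 to 0.069 without 1 replicate, and Acadl 0.13 with copies merged. In the difference, library size alone gave −0.0021 for Esrra and −0.020 for Gabpa, and Esrrb ranged from −0.073 to 0.045 without 1 replicate. With the AAV groups turned, as the column names read, the differences were −0.075 for Ppargc1a, −0.17 for Perm1, −0.12 for Esrra, −0.034 for Esrrg, 0.0062 for Ppard, 0.0070 for Nrf1 and −0.027 for Gabpa. Of the pairs, Ppargc1a with Perm1 was 0.033 without the 2 farthest hearts and 0.0061 in the knockout libraries, with Esrra 0.11 without the 2 farthest, and with Ppara 0.24 in the AAV libraries. Library size alone moved the median of all genes to 0.06 in the knockout experiment, −0.04 in the AAV experiment and −0.11 in the difference.

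Over all genes the AAV experiment gave 82 calls, 308 with DESeq2, 304 with no low-count filter, 1 with all 14 libraries in 1 fit and 1 to 285 without 1 replicate (285 without the library labelled shCtrl replicate 3). The replicate block gave 20, and changed no call of a regulator (Ppargc1a 0.28, adjusted p 0.137). Same-numbered replicates did not deviate together in every pair (r between −0.06 and 0.19), so the block is no pairing.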

Other observations

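By the labels, the lowest control heart of the knockout experiment lay above the highest of the AAV experiment for 2 of the regulators. How many of all genes did so was not computed, so this is not known to be particular to the regulators. Gabpa was at 74.4 to 88.3 CPM in Atf3+/+FS6KD and at 66.9 to 68.8 CPM in the libraries labelled shCtrl. Ppargc1b was at 55.2 to 102 CPM and 46.1 to 54.98 CPM, but before TMM scaling its groups overlapped (lowest 52.9 CPM in Atf3+/+FS6KD, highest 55.2 CPM in the libraries labelled shCtrl). With the AAV groups turned, the AAV controls were at 65.8 to 73.0 CPM for Gabpa, again lower without overlap. For Ppargc1b they were at 51.0 to 62.3 CPM, which overlapped with Atf3+/+FS6KD. The experiments were scaled separately, so these differences were not tested.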
